A study of Mus musculus with 12 samples.

Results

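Protein tyrosine phosphatases and dual-specificity phosphatases were followed across regulatory and transduced T cells that carried different forms of Foxp3. The set holds every gene whose mouse symbol is Dusp or Ptpn with a number, or Ptpr with a letter, in the annotation of the array. With 1 probe set per gene, the brightest by its mean over 12 arrays among those that name a single gene, it came to 42 genes of 16426. A gene was tested where it exceeded the array median on 2 arrays or more, which 28 of these did and 8918 genes in all. The reference gene table lists 62 mouse genes with such symbols, and 20 of them are not analysed here, among them Ptprc, Ptpn7, Ptpn4, Ptpn18, Ptprk, Dusp6, Dusp10 and Dusp14. All but Ptprt of those 20 lie on chromosomes 1, 10 and 11.

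The arrays fall into 6 groups of 2. Splenic regulatory T cells (Tregs), sorted as CD4+ CD25-high cells, came from mice of genotype Foxp3(WT/WT), Foxp3(M354/M354) or Foxp3(M176/M176). The other groups were conventional CD4+ T cells of WT mice that received WT, M354 or M176 Foxp3 from a retrovirus and were sorted on high Thy1.1. All mice were C57Bl/6 males 6 weeks old. The series' text calls the donor mice treated and does not name a treatment. What M354 and M176 change in the protein is not given in the sources used here, nor are the vector's promoter, the length of culture or the source of the Thy1.1. No group was transduced without Foxp3, and no Treg group lacked it, so that every comparison sets one form of Foxp3 against another or one cell source against another. Nothing in the labels ties an array to an animal or a culture. The p-values rest on the spread between the 2 arrays of a group, pooled for each gene over the 6 groups. The kinship of those arrays is unknown, and that spread may be technical only.

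The mean log2 intensity of the T cell markers, 6 of 8 listed, lay between 11.73 and 12.02 on all 12 arrays. Cd3e lay between 5267 and 7955 and was lowest on the M176 Treg arrays, at 5267 and 5269. Among Tregs Cd3d was highest on those arrays, at 2261 and 1890, against 802 to 1097 on the others. Foxp3 itself was at 5913 and 5327 in WT Tregs, 5991 and 5485 in M354 Tregs and 3442 and 3321 in M176 Tregs, and at 5233 to 6163 in transduced cells. Treg markers, 7 of 9 listed, summed to 28969 and 30894 in WT, 26404 and 26529 in M354 and 20849 and 21080 in M176 Tregs. In transduced cells they summed to 27618 and 28622 with WT, 19592 and 21031 with M354 and 23325 and 23683 with M176. M354 Tregs had less Gpr83 than WT (1042 and 1097 against 2588 and 2224) and more Nrp1 (1540 and 1713 against 1184 and 1221). WT-transduced cells had less Gpr83 (517 and 510) than WT Tregs and more Il2ra (10312 and 9813 against 8497 and 9013). The M176 Treg arrays also stood apart in their small nucleolar RNAs, whose summed intensity over 36 genes was 74296 and 77174, against 34327 to 38166 on the other Treg arrays and 31944 to 69115 on transduced arrays. B cell transcripts were more abundant on WT Treg replicate 2 than on the other Treg arrays (summed over 11 of 14 listed markers, 4148 against 1689 to 2161), and they were so on all transduced arrays (3792 to 4220). Markers of CD8+ and NK cells summed over 8 of 9 genes to 800 to 1078 in Tregs and to 1972 to 3154 in transduced cells. Among transduced cells they were highest with M354, at 2765 and 3154, against 1972 and 2201 with WT and 2167 and 2280 with M176. No listed marker was at 0, and 6 of the 7 myeloid markers measured lay below the array median throughout. The part of these differences in the results below was not tested. The arrays measure RNA in bulk, so that fewer cells of a type and less RNA per cell cannot be told apart.

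Tyrosine phosphatases remove phosphate from tyrosines and so oppose the tyrosine kinases through which the T cell receptor and cytokine receptors signal. Receptor-type members span the membrane and the non-receptor members act in the cytosol or at membranes inside the cell. Dual-specificity phosphatases also act on serine and threonine. Their MAP kinase phosphatase branch switches off ERK, p38 and JNK, and several of its genes are themselves switched on quickly by those kinases, in T cells as in other cells.

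Because promoters of such immediate-early genes often carry CRE or EGR motifs, the start regions of the set were read from RefSeq (GRCm38.p6, 250 bases before to 50 after each gene's start), which holds 33 of the 42 genes and 23 of the 28 tested. The motifs searched, on both strands, were CRE (TGACGTCA), AP-1 (TGANTCA), forkhead (GTAAACA, the class bound by Foxp3) and EGR (GCGNGGGCG). CRE was found in 4 of the 23 tested members and in 3.56% of the 7110 tested genes that have such a window. EGR was found in 8 of the 23 and in 12.1% of those genes. AP-1 and forkhead were in 1 member each, Ptpre and Ptpra, and in 5.57% and 2.94% of the genes. The windows of the tested members were richer in G and C than those of tested genes, with a median of 66.7% against 60.7%, and EGR is itself made mostly of those bases. The stretches around each CRE follow, 5′ to 3′ on the strand of the gene with the CRE in capitals, to show the 4 members that hold one. The first begins 143 bases before the start of Dusp1 (chr17:26508588-26508635, minus strand), the others 107 and 63 bases before that of Dusp8 (chr7:142095364-142095411 and chr7:142095320-142095367, minus strand), 67 before that of Ptpn11 (chr5:121191437-121191484, minus strand) and at base 6 of Ptprs (chr17:56476448-56476495, minus strand).
Dusp1: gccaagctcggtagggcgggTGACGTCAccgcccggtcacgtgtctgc
Dusp8: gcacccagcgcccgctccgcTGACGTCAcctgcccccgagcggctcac
Dusp8: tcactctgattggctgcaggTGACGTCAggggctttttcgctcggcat
Ptpn11: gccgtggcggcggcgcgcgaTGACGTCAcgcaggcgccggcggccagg
Ptprs: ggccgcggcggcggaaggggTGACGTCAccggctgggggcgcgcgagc
A match is a stretch of letters and says nothing of binding, which was not measured.

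The start regions of Ptprj and Ptpn13, the pair of genes called in most comparisons, are shown whole, and no call below makes use of them. The window of Ptprj (chr2:90580546-90580845, minus strand) holds none of the 4 motifs, nor does the window of its second listed start. The window of Ptpn13 (chr5:103424942-103425241, plus strand) holds 1 EGR match, in capitals, 57 bases before the start.
Ptprj: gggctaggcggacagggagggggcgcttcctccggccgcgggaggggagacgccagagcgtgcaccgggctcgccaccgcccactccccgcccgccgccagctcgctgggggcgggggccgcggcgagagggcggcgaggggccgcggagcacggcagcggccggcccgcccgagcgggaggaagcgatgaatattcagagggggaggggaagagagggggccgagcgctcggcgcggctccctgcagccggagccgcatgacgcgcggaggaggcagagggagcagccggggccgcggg
Ptpn13: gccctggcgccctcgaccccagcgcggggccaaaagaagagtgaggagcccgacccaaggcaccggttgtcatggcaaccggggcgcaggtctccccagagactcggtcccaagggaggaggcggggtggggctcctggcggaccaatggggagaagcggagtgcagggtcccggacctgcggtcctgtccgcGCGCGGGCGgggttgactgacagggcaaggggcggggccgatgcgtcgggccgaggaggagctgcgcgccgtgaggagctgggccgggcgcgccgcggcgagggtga
Their 79.3% and 74.0% of G and C lie above the median of the tested members.

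Between M354 and WT Tregs 3 of the 28 members were called (limma, Benjamini-Hochberg adjusted p under 0.05 over all tested genes), 2 higher and 1 lower, which is to be read against 1.81% of all 8918 genes called, 0.886% higher and 0.919% lower. Cyclic loess normalization moved the share of higher genes among all called ones from 49.1% to 65.1%, and added Ptpn11 to the higher members (log2 0.50, adjusted p = 0.0446). Without WT Treg replicate 1, either M354 Treg array or either M176 transduced array, 1 of the 3 remained called, although Dusp5 joined it without M354 Treg replicate 2 (log2 -0.87, adjusted p = 0.0366). Without WT Treg replicate 2, the array with B cell transcripts, the count was again 3, but Ptprj had left it and Dusp2 had joined it (log2 -0.81, adjusted p = 0.0255). Between M176 and WT Tregs 5 members were called, 1 higher and 4 lower, with 24.7% of all genes called, 13.4% higher and 11.3% lower. That is 17.9% of the members, no more than the share of all genes, and it rests on the arrays with more small nucleolar RNA and less Foxp3. The count was 3 without WT Treg replicate 1 or M354 transduced replicate 2, and 2 without M176 Treg replicate 1, and it was 4 without WT Treg replicate 2. Dusp3 left that count without M354 transduced replicate 2 because it was no longer tested there. M354 against M176 Tregs gave 12 called members, 9 higher and 3 lower in M354, with 30.8% of all genes called, 12.7% higher and 18.1% lower. The members' share was 42.9%, and their count was 7 without either M176 Treg array.

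In transduced cells 2 members were called with M354 against WT, both lower, where 1.33% of all genes were called, 0.359% higher and 0.976% lower. Neither call held without either WT Treg, M176 Treg, WT transduced or M176 transduced array or without M354 transduced replicate 1, and 1 held without either M354 Treg array or M354 transduced replicate 2. With M176 against WT, limma called 0 members (5 at an unadjusted p under 0.05) and 0.516% of all genes, 0.0112% higher and 0.505% lower. M354 against M176 gave 0 called members (1 at an unadjusted p under 0.05) and 0.0785% of all genes, 0.0561% higher and 0.0224% lower. Of the 7 genes called there 71.4% were higher, and quantile normalization left 1 gene, a lower one. All genes were not counted at an unadjusted p under 0.05, so the 5 and 1 members at that threshold are a description. WT Tregs and WT-transduced cells differed in 13 members, 7 higher and 6 lower in Tregs, while 30.2% of all genes were called, 10.9% higher and 19.4% lower. The members' share was 46.4%, but 3 of the 13, Dusp3, Dusp8 and Ptpn5, passed the filter through arrays of the source where they are high, so the share is given as a description. The count was 7 without WT Treg replicate 1 or WT transduced replicate 1. Dusp3 left that count without WT transduced replicate 1 because it was no longer tested there. Quantile normalization moved the share of higher genes among all called in this comparison from 35.9% to 51.3%.

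The difference between the cell sources in an allele's effect was tested directly. It was called for 1 member with M354, Ptpn13, with 1.08% of all genes called, 0.83% higher and 0.247% lower. With M176 it was called for 1 member, Ptprj, with 5.49% of all genes called, 4.03% higher and 1.47% lower. For M176 a second member was called without single arrays, Ptpn2 without WT Treg replicate 2 (0.96, adjusted p = 0.0409) or WT transduced replicate 2 (1.06, 0.00961) and Ptprs without M176 transduced replicate 2 (-0.76, 0.0479). Ptpn2 was also called with cyclic loess normalization (0.76, 0.0441). These Ptpn2 values come from its brightest probe set, and on the other one M176 minus WT was -0.51 in Tregs and -0.022 in transduced cells, so that no direction is set. Over all 9 comparisons, 19 of the 28 members were called at least once and 37 calls were made. Of these, 14 held under every alternative in which the gene was tested.

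**Figure D1:**
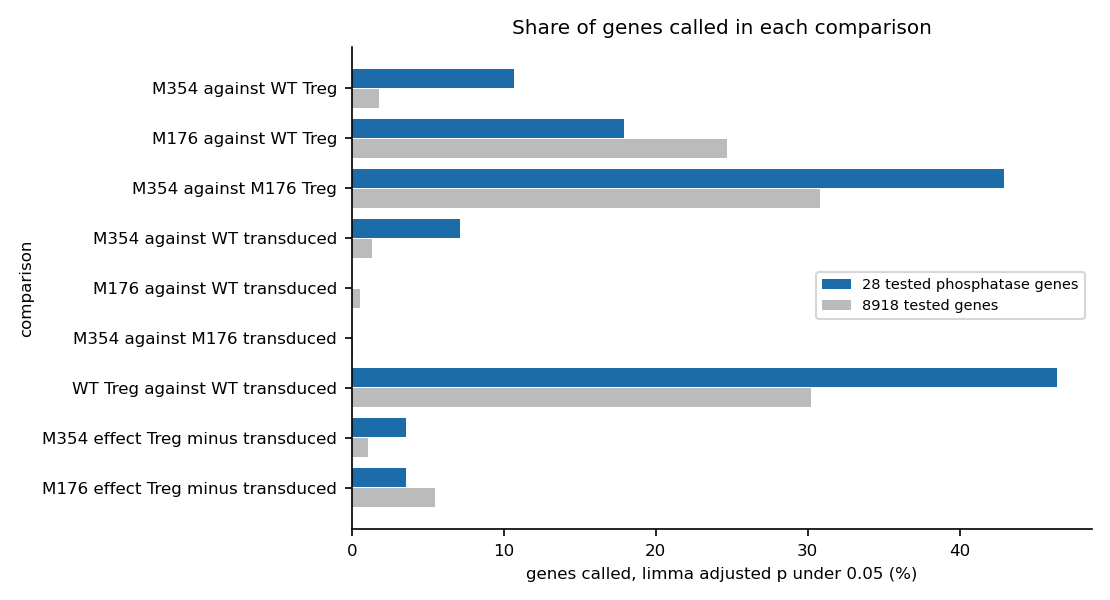
Share of genes called in each of the 9 comparisons, in percent (horizontal axis), for the 28 tested phosphatase genes (blue bars) and all 8918 tested genes (grey bars). The phosphatase bar reaches 46.4% in WT Tregs against WT-transduced cells and 42.9% in M354 against M176 Tregs, and is absent in 2 comparisons of transduced cells where 0 members were called.

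Among the receptor-type phosphatases, Ptprj was lower with both mutant forms of Foxp3 in Tregs. Ptprj encodes CD148, a membrane phosphatase that acts on Src-family kinases. Its intensity was 766 and 702 on the WT Treg arrays, 488 and 480.5 on the M354 arrays and 240.4 and 253 on the M176 arrays. The 3 groups do not overlap, with M354 between the others. In transduced cells it was 922 and 774 with WT, 488 and 635 with M354 and 647 and 656 with M176 Foxp3. There both mutants lay below WT on all arrays, and M176 lay above M354.

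Against WT Tregs, Ptprj fell 2.97-fold in M176 (log2 -1.57, SE 0.14, adjusted p = 1.90e-06), the lowest value of the 28 members in that comparison. In M354 Tregs it fell 1.51-fold (log2 -0.60, SE 0.14, adjusted p = 0.04), and M354 lay above M176 by 0.97 (adjusted p = 9.69e-05). With M354 in transduced cells the log2 change was -0.60 (SE 0.14, adjusted p = 0.0465), and with M176 it was -0.37 and did not pass (adjusted p = 0.635). The effect of M176 in Tregs minus its effect in transduced cells was -1.20 (SE 0.20, adjusted p = 0.00287), and for M354 the same difference was 0.0025 (adjusted p = 0.998). The calls against M176 Tregs and the difference for M176 held under every alternative. The M354 calls did not. In Tregs the M354 call ended without WT Treg replicate 1 (adjusted p = 0.215) or 2 (0.0975), M354 replicate 1 (0.17) or 2 (0.143), and either M176 array of either source (0.0557 to 0.0601), and with the mean of the probe sets (0.0517). In transduced cells it ended without M354 replicate 1 (0.56), WT replicate 1 (0.193) or 2 (0.0598), any Treg array (0.0501 to 0.0729) or either M176 transduced array (0.0660 and 0.0666), with the mean of the probe sets (0.132) and with only the transduced arrays (0.103).

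A second Ptprj probe set showed the same order among Tregs, with intensities of 578 and 626 in WT, 409 and 406 in M354 and 235 and 198 in M176. Its log2 differences from WT were -0.56 in M354 and -1.48 in M176, beside -0.60 and -1.57 on the first probe set. In transduced cells it gave 709 and 512 with WT, 424 and 503 with M354 and 630 and 521 with M176, so that WT and M176 overlap on this probe set.

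**Figure D2:**
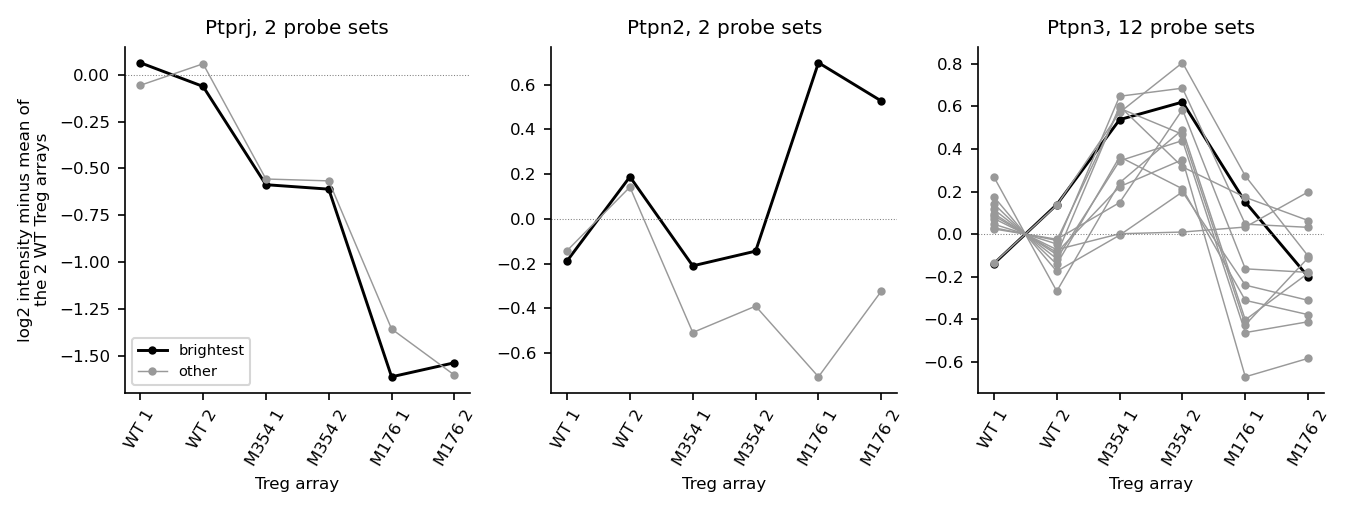
Every probe set of Ptprj (2), Ptpn2 (2) and Ptpn3 (12) on the 6 Treg arrays, as log2 intensity minus the mean of the 2 WT Treg arrays (vertical axis), with the brightest probe set in black and the others in grey. Both lines of Ptprj fall together, the lines of Ptpn2 part in M176, and 12 of 12 lines of Ptpn3 have a higher mean in M354 than in WT.

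Ptprs, which encodes a receptor-type phosphatase known as PTP sigma, was lower with M176 in Tregs. The arrays gave 395 and 361 in WT, 392 and 447 in M354 and 235 and 219 in M176 Tregs. Both M176 arrays lie below all other Treg arrays, and WT and M354 overlap. Ptprs fell 1.67-fold in M176 against WT (log2 -0.74, SE 0.15, adjusted p = 0.00159), and M354 lay above M176 by 0.88 (adjusted p = 0.000274), and both calls held under every alternative. In transduced cells Ptprs was 367 and 362 with WT, 285 and 329 with M354 and 371 and 283 with M176, with changes of -0.25 (adjusted p = 0.571) and -0.17 (adjusted p = 0.9999). The difference between sources in the M176 effect was -0.57 (adjusted p = 0.119) and did not pass.

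Ptpra and Ptpre, paralogous membrane phosphatases that can activate Src-family kinases, were called in no comparison. Ptpra was at 441 and 467, 411 and 394 and 449 and 459 in WT, M354 and M176 Tregs and at 475 to 616 in transduced cells. Ptpre was at 338 and 335 in WT, 282 and 268 in M354 and 268 and 259 in M176 Tregs, below WT on every mutant array, with changes of -0.29 (adjusted p = 0.437) and -0.35 (adjusted p = 0.0652). With quantile and with cyclic loess normalization the M176 change of Ptpre passed (-0.42, adjusted p = 0.0229, and -0.38, 0.0345). The fifth tested receptor-type gene, Ptprf, lay above the array median on 2 of 12 arrays and was not called. The remaining 8 receptor-type genes, Ptprd, Ptprg, Ptprh, Ptprm, Ptprn2, Ptpro, Ptpru and Ptprz1, were above the median on 0 arrays and were not tested.

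Among the non-receptor phosphatases, Ptpn13 and Ptpn3 were higher in M354 Tregs. Ptpn13 encodes a large phosphatase with a FERM domain and PDZ domains. It was at 285 and 286 on the WT Treg arrays, 516 and 498 on the M354 arrays and 223 and 230.5 on the M176 arrays. The M354 arrays lie far above the rest and the M176 arrays below WT. In transduced cells the order differed, with 208 and 202 for WT, 156 and 186 for M354 and 155 and 141 for M176. Ptpn13 rose 1.77-fold in M354 Tregs (log2 0.83, SE 0.13, adjusted p = 0.0014) and lay 2.24-fold above M176 Tregs (log2 1.16, adjusted p = 6.56e-06). The M176 change was -0.33 (adjusted p = 0.0644) and did not pass, although it did with quantile (-0.40, 0.0209) and cyclic loess normalization (-0.35, 0.0331). With transduction the changes were -0.27 (adjusted p = 0.43) for M354 and -0.47 (adjusted p = 0.208) for M176, neither of which passed. The M354 effect in Tregs exceeded that in transduced cells by 1.10 (SE 0.18, adjusted p = 0.00366). WT Tregs lay above WT-transduced cells by 0.48 (adjusted p = 0.00949), a call that ended without WT Treg replicate 1 (0.0546). The other calls of Ptpn13 held under every alternative.

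Ptpn3 encodes a relative of Ptpn13 that also carries FERM and PDZ domains. It was at 130.2 and 158 in WT, 208 and 220.3 in M354 and 159 and 125 in M176 Tregs, and at 222 and 225, 213 and 220.4 and 187 and 178 with WT, M354 and M176 in transduced cells. The M354 Treg arrays reach the level of the transduced cells, and the WT and M176 Treg arrays overlap below it. Ptpn3 rose 1.49-fold in M354 against WT Tregs (log2 0.58, SE 0.14, adjusted p = 0.0444) and lay above M176 by 0.60 (adjusted p = 0.00407). It was lower in WT Tregs than in WT-transduced cells (log2 -0.64, adjusted p = 0.00263). Of its 12 probe sets, 12 were higher in M354 than in WT Tregs and 9 of them did not overlap, with log2 differences from 0.0057 to 0.69 and a median of 0.38. With the mean of the probe sets the M354 call ended (log2 0.39, adjusted p = 0.135), as it did without WT Treg replicate 1 (0.308), M354 Treg replicate 1 (0.154) or 2 (0.173), or any mutant transduced array (0.0563 to 0.0584). The call against M176 ended without M176 Treg replicate 2 (0.0777). That against transduced cells ended without WT Treg replicate 1 (0.0524) and with the mean of the probe sets (0.0923).

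Ptpn2 and Ptpn22, both negative regulators of T cell signalling, and Ptpn11, which encodes SHP-2, were called between the mutants. Ptpn2, which acts on JAK and STAT proteins, was at 608 and 789 in WT, 599 and 627 in M354 and 1124 and 998 in M176 Tregs. It was higher in M176 than in WT by 0.61 (adjusted p = 0.0156) and lower in M354 than in M176 (log2 -0.79, adjusted p = 0.00247). A second Ptpn2 probe set moved the other way, with 169 and 206 in WT and 115 and 149.5 in M176 Tregs, a log2 difference of -0.51. Neither probe set has overlapping arrays there, and with their mean the change was 0.049 (adjusted p = 0.854), so that no direction is set for Ptpn2 in M176. The call against WT also ended without WT Treg replicate 1 (0.166) or M176 Treg replicate 1 (0.14). That between the mutants ended with the mean of the probe sets (0.109).

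Ptpn22 was at 1341 and 1415 in WT, 1498 and 1688 in M354 and 1271 and 1162 in M176 Tregs, which puts M354 above and M176 below WT on every array. The mutants differed by 0.39 (adjusted p = 0.0363), and neither change from WT passed (log2 0.21 with adjusted p = 0.651 in M354 and log2 -0.18 with 0.342 in M176). The call ended without M354 Treg replicate 1 (0.059) or 2 (0.168) and without M176 replicate 1 (0.0872) or 2 (0.189). Ptpn11 was at 436 and 433 in WT, 533 and 628 in M354 and 364 and 433 in M176 Tregs. M354 lies above both other groups, which overlap. The mutants differed by 0.54 (adjusted p = 0.00978), a call that ended without M354 Treg replicate 2 (0.0777) or M176 replicate 1 (0.133), and M354 against WT was 0.41 (adjusted p = 0.21). In transduced cells Ptpn22 ranged from 1538 to 1944 and Ptpn11 from 499 to 634 over the 6 arrays, and neither was called between alleles there.

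Ptpn6, Ptpn12, Ptpn5 and Ptpn9 were called between the cell sources. Ptpn6 encodes SHP-1, a brake on antigen receptor signalling. Its Treg arrays ranged from 876 to 1013 and its transduced arrays from 514 to 605, with no overlap. Between WT groups the means were 944 ± 96.6 and 536 ± 31.2 (SD, n = 2 each), a log2 difference of 0.81 (SE 0.13) with adjusted p = 0.000116. Among Tregs the mutants differed from WT by 0.017 (adjusted p = 0.983) and -0.02 (adjusted p = 0.923). Ptpn12 (PTP-PEST), which acts on adaptor and cytoskeletal proteins, was at 532 and 594 in WT Tregs and 404 and 363 in WT-transduced cells, a difference of 0.55 (adjusted p = 0.00372). In M176 against WT Tregs it was called with quantile (-0.37, adjusted p = 0.0262) and cyclic loess normalization (-0.34, 0.0339) but not as deposited (log2 -0.33, adjusted p = 0.0733). Ptpn5, best known from neurons as STEP, was at 154 and 170.3 against 93.8 and 99.7 (log2 0.74, adjusted p = 0.000389). It lay above the array median on 6 Treg arrays and 1 transduced array, and so passed the filter through the source where it is high. Ptpn9, a phosphatase with a lipid-binding domain, was lower in WT Tregs, at 324 and 271 against 504 and 452 (log2 -0.69, adjusted p = 0.00127). These 4 calls held under every alternative in which the gene was tested, but Ptpn5 was not tested with the stricter filter. Ptpn2 was lower in WT Tregs too, at 608 and 789 against 1338 and 899.5 (log2 -0.66, adjusted p = 0.00799), but not without WT Treg replicate 1 (0.116) or WT transduced replicate 1 (0.153), nor with the mean of its probe sets (0.0789). Ptpn1 (PTP1B), at 1073 to 1344 over all arrays, and Ptpn23 were called nowhere. Ptpn20 and Ptpn21 were not tested.

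**Figure D3:**
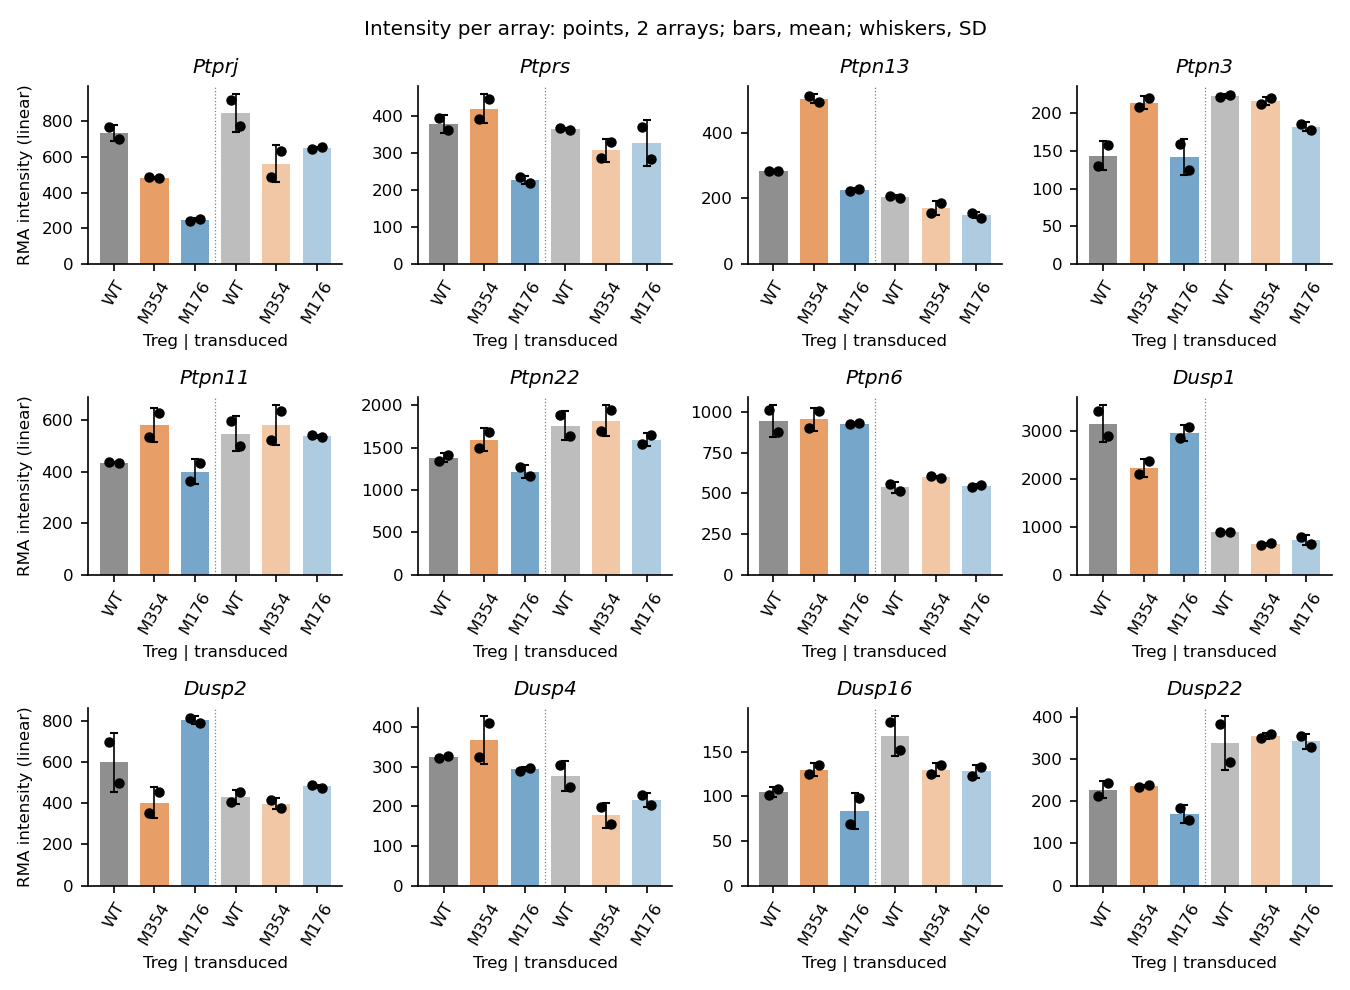
RMA intensity on a linear axis for 12 phosphatase genes, each in WT, M354 and M176 Tregs (dark bars) and transduced cells (pale bars), with bars for the mean of 2 arrays, whiskers for the SD and points for the arrays. Ptprj steps down from 766 and 702 in WT to 240.4 and 253 in M176 Tregs, Ptpn13 is highest in M354 Tregs at 516 and 498, and the Treg bars of Dusp1 and Ptpn6 exceed all their transduced bars.

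The 8 MAP kinase phosphatases were all tested, and none was called between a mutant and WT in Tregs. At an unadjusted p under 0.05 there were 3 in M354 and 3 in M176, a threshold at which all genes were not counted. After adjustment 1.81% and 24.7% of all genes were called there. Between the mutants 4 were called, 2 in each direction, where 30.8% of all genes were called, 12.7% higher and 18.1% lower. Between WT Tregs and WT-transduced cells 4 were called, of which 3 (Dusp8 among them) were higher in Tregs, where 30.2% of all genes were called, 10.9% higher and 19.4% lower. Dusp1, an inducible nuclear phosphatase that acts on p38 and JNK, had the highest change of the 28 members between the sources. It was at 3414 and 2878 in WT Tregs and 894 and 895 in WT-transduced cells, 3.50-fold higher in Tregs (log2 1.81, SE 0.14, adjusted p = 4.32e-08), and the call held under every alternative. The M354 arrays were below WT in both sources, at 2086 and 2361 in Tregs and 610.4 and 649 after transduction, and the changes of -0.50 (adjusted p = 0.0854) and -0.51 (adjusted p = 0.0994) did not pass. M176 Tregs had 2840.3 and 3071 and overlapped WT. M354 Tregs were lower than M176 Tregs (log2 -0.41, adjusted p = 0.0336), a call that ended with quantile (0.118) and cyclic loess normalization (0.0545), and without M354 Treg replicate 1 (0.219) or M176 Treg replicate 1 (0.09) or 2 (0.168).

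Dusp2, a nuclear phosphatase of ERK and p38 found mostly in immune cells, separated the mutants in Tregs. It was at 699.8 and 498 in WT, 352 and 456 in M354 and 817 and 790.0 in M176 Tregs, with M354 below and M176 above both WT arrays, which are themselves wide apart. M354 was 2.01-fold below M176 (SE 0.16 on the log2 scale, adjusted p = 0.00023), and this held under every alternative. With all arrays neither M354 (log2 -0.56, adjusted p = 0.101) nor M176 (log2 0.44, adjusted p = 0.0546) differed from WT past the threshold. Without WT Treg replicate 2 the M354 change was -0.81 (0.0255), and without WT Treg replicate 1 the M176 change was 0.69 (0.0123). The M176 change also passed without either M354 Treg or either WT transduced array (0.0449 to 0.0475). In transduced cells Dusp2 was at 407 and 456, 417 and 378 and 488 and 476 with WT, M354 and M176. WT Tregs exceeded WT-transduced cells by 0.46 (adjusted p = 0.0431), which ended without WT Treg replicate 1 (log2 0.21, adjusted p = 0.462), WT transduced replicate 1 (0.208), either M176 Treg array (0.0560 and 0.0561) or either M176 transduced array (0.0529).

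Dusp16, a JNK and p38 phosphatase, moved opposite to Dusp2 between the mutants, at 101 and 109 in WT, 124 and 135 in M354 and 69.3 and 97.9 in M176 Tregs. M354 was above M176 by 0.65 (adjusted p = 0.00485), not without M176 Treg replicate 1 (0.123). WT-transduced cells, at 183 and 152, exceeded WT Tregs, with a log2 value of -0.67 (adjusted p = 0.00388) for Tregs minus transduced cells, not without WT transduced replicate 1 (0.0505). Dusp16 lay above the array median on 8 of 12 arrays, the 2 M354 Treg arrays and the 6 transduced ones. In both calls only the higher group therefore exceeded the median. Dusp9, an ERK phosphatase, was higher in M354 Tregs (171 and 159) than in M176 Tregs (132 and 126) by 0.35 (adjusted p = 0.0448). That call ended in 12 of its 18 alternatives, among them each M354 or M176 Treg array left out (0.0583 to 0.215) and each mutant transduced array left out (0.0513 to 0.0521). Dusp8, a JNK and p38 phosphatase, was above the median on 3 Treg arrays and 0 transduced arrays, and so passed the filter only through the source where it is high. It was at 119 and 104 in WT Tregs and 75.9 and 87.6 in WT-transduced cells. Its difference of 0.45 (adjusted p = 0.0207) ended without WT Treg replicate 1 (0.175) or WT transduced replicate 1 (0.168) and with cyclic loess normalization (0.0672).

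Dusp4, a nuclear phosphatase induced through ERK, was lower with M354 in transduced cells. It was at 304 and 249 with WT, 199 and 154 with M354 and 228 and 203 with M176, so that both mutants lie below WT and M354 below M176. The M354 change was log2 -0.65, SE 0.16, adjusted p = 0.0483, and it lost its call without any WT Treg (0.0521 and 0.0525), M176 Treg (0.0744 and 0.0747), WT transduced (0.194 and 0.0556), M354 transduced (0.0564 and 0.33) or M176 transduced array (0.0644 and 0.0650). The call also ended with only the transduced arrays (0.0785) and without the filter (0.0518). In Tregs Dusp4 was at 322 and 326 in WT and 323 and 409 in M354, a change of 0.17 (adjusted p = 0.798), and the difference between sources of 0.82 (adjusted p = 0.119) did not pass. It passed with quantile (0.86, 0.0384) and with cyclic loess normalization (0.91, 0.0463). M354 against M176 Tregs was 0.31 (adjusted p = 0.141) and passed with quantile (0.44, 0.0225) and cyclic loess normalization (0.40, 0.04875). WT Tregs against WT-transduced cells was 0.23 (adjusted p = 0.269) and passed with quantile normalization (0.40, 0.0372). Dusp5, an inducible nuclear ERK phosphatase, was at 1028 and 887 in WT, 521 and 765 in M354 and 725 and 760.1 in M176 Tregs. All mutant arrays lie below WT, yet the M354 change of -0.60 (SE 0.18) did not pass (adjusted p = 0.111) and the M354 arrays were wide apart. Without M354 Treg replicate 2 it was -0.87 (0.0366). Dusp7, a cytosolic ERK phosphatase, was at 2661 and 2288 in WT and 1889 and 1911 in M176 Tregs, a change of -0.38 (adjusted p = 0.0527) that passed with quantile normalization (-0.42, 0.0303) and without either WT transduced array (0.0464).

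**Figure D4:**
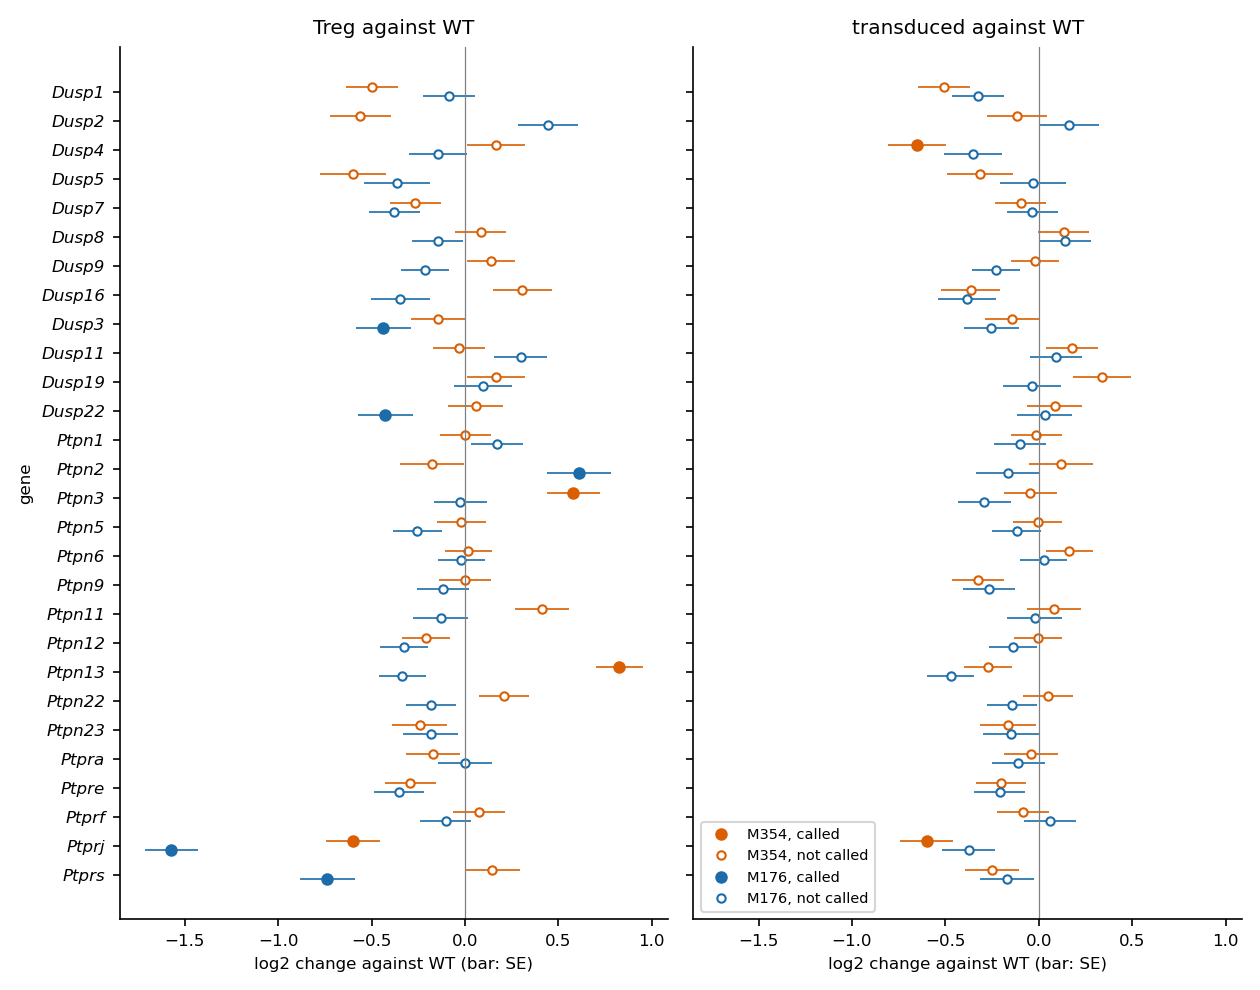
Change of each of the 28 tested phosphatase genes against WT as log2 (horizontal axis, bars for the SE), in Tregs (left) and transduced cells (right), with M354 in orange and M176 in blue and filled points for called genes. In Tregs Ptprj is called at -0.60 and -1.57 and Ptpn13 at 0.83, and in transduced cells the calls are Dusp4 at -0.65 and Ptprj at -0.60.

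Of the atypical dual-specificity phosphatases, which lack the MAP kinase binding region, 4 of 8 were tested. Dusp22, also called JKAP, which acts on Lck, was at 212 and 242 in WT, 233 and 238 in M354 and 184 and 154 in M176 Tregs, and at 292 to 382 in transduced cells. It was lower in M176 than in WT Tregs (log2 -0.43, adjusted p = 0.0423), and M354 lay above M176 by 0.48 (adjusted p = 0.0193). The first call ended without either WT Treg array (0.0594 and 0.223), either M176 Treg array (0.0623 and 0.278) or either M354 transduced array (0.0507 and 0.0509). The second ended without either M354 Treg array (0.0831 and 0.0661) or M176 Treg replicate 2 (0.172). Against WT-transduced cells WT Tregs were at -0.56 (adjusted p = 0.00836), not without WT Treg replicate 1 (0.089) or WT transduced replicate 1 (0.136).

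Dusp3 (VHR) was above the array median on 2 arrays, WT transduced replicate 1 and M354 transduced replicate 2, and passed the filter through them. It was at 81.1 and 69.7 in WT and 57.2 and 53.9 in M176 Tregs, a change of -0.44 (adjusted p = 0.0384) that ended with quantile (0.124) and cyclic loess normalization (0.142) and without WT Treg replicate 1 (0.242) or M176 Treg replicate 1 (0.121) or 2 (0.166). In WT-transduced cells it was at 112 and 103, and WT Tregs lay at -0.51 (adjusted p = 0.0151) against them, not without WT Treg replicate 2 (0.114). Since it passed the filter only through transduced arrays, where it is high, that call supports nothing further. Dusp11, a phosphatase of RNA 5′ ends, was at 1470.0 and 1762 in WT and 1932 and 2025 in M176 Tregs and was not called (log2 0.30, adjusted p = 0.129). Dusp19 was at 284 and 270.4 in WT Tregs and 207 and 224 in WT-transduced cells and was not called either (log2 0.36, adjusted p = 0.0853). With quantile normalization that difference passed (0.525, 0.0234). Dusp13, Dusp15, Dusp21 and Dusp26 were above the median on 0 arrays. Over all 14 untested members the intensities ranged from 10.7 to 113.

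Seen across the 28 tested members, M176 Tregs had the lowest group mean of the 3 Treg groups for 19 genes, and M354 Tregs had the highest for 14 and WT Tregs for 9. In transduced cells WT had the highest mean for 18 genes and M176 the lowest for 14. The median log2 change of the members was -0.16 in M176 against WT Tregs, where that of all tested genes was -0.043, and 0.0017 in M354, where it was -0.045. With transduction it was -0.14 for M176 and -0.064 for M354, against -0.0091 and 0.012 over all genes. The Treg and transduced comparisons share no array. With M354, 6 members were higher than WT in both sources, 11 lower in both and 11 opposite (Pearson r 0.24 over 28 genes, which are not independent replicates). With M176, 2 were higher in both, 18 lower in both and 8 opposite (r 0.41). Neither the group orders nor these shared directions were counted over all tested genes. They describe the members and cannot show a trait of the set. The median difference of the 2 arrays of a group was between 0.0853 and 0.195 on the log2 scale over the 28 members.

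**Figure D5:**
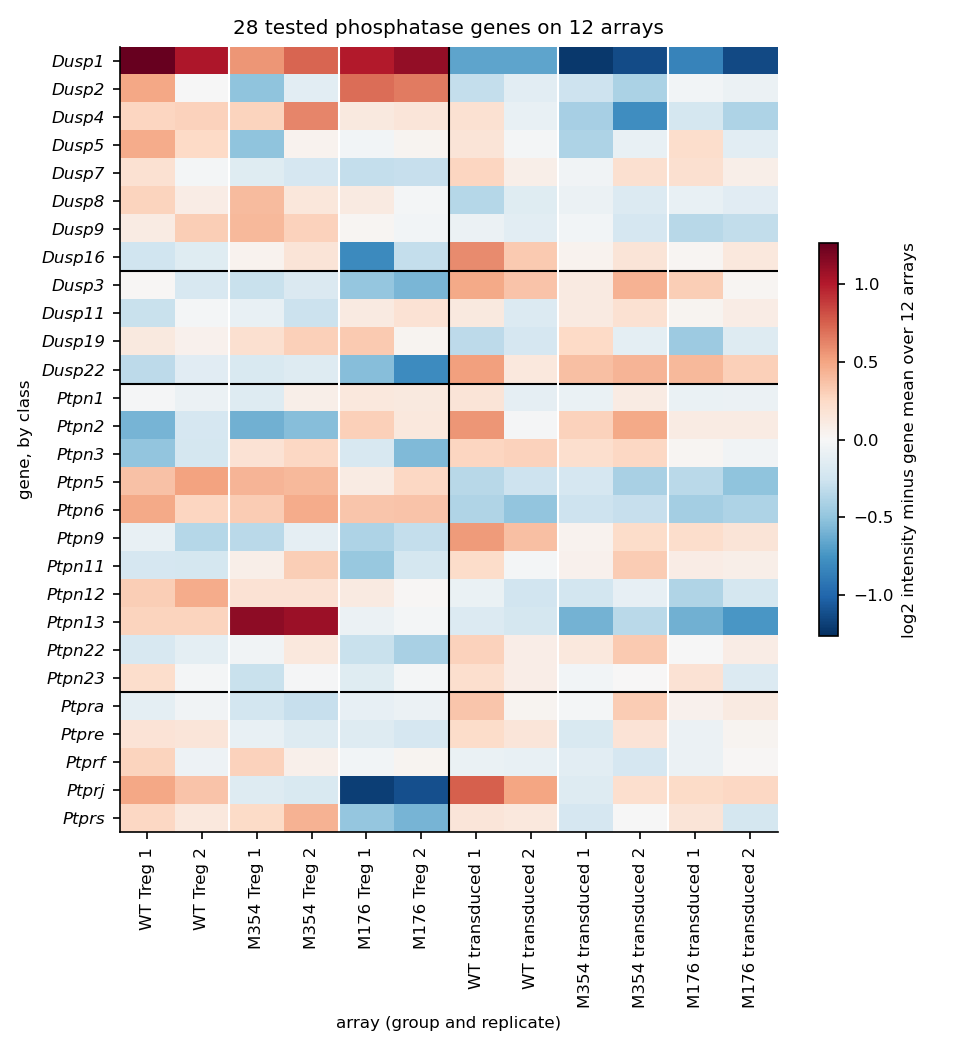
Log2 intensity minus the gene's mean over 12 arrays (colour, red high and blue low) for the 28 tested phosphatase genes in rows, by class from MAP kinase phosphatases at the top to receptor-type at the bottom, and the 12 arrays in columns. Dusp1, Ptpn5 and Ptpn6 are red in Tregs and blue in transduced cells, Ptpn13 is dark red on the M354 Treg arrays at 516 and 498, and Ptprj is dark blue on the M176 Treg arrays at 240.4 and 253.

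The genes around these phosphatases were read from fixed lists. Most listed genes that were not tested had no probe set naming that gene alone under the listed symbol. Measured were 29 of 40 genes of receptor signalling, 28 of 47 of the MAP kinase cascade and 22 of 32 of JAK-STAT. Of 42 other phosphatases and related genes 30 were measured. Of 29 tested genes of proximal T cell receptor signalling (40 listed), M176 against WT Tregs called 4 higher and 5 lower, a share of 31% where that of all genes was 24.7%. The lower ones were the ubiquitin ligases Cblb at -0.84 (adjusted p = 0.000209) and Cbl at -0.68, the adaptors Sla at -0.70 and Sla2 at -0.39, and Cd3e at -0.48. The higher ones were Cd3d at 1.16 (adjusted p = 0.000596), the adaptors Trat1 at 0.72 and Sit1 at 0.56, and Sh2d1a at 0.59. M354 against WT Tregs called 1 lower, the kinase Txk at -0.84 (adjusted p = 0.00132). Between the mutants 4 were higher and 7 lower in M354, and between the WT sources 6 were higher and 3 lower in Tregs. These shares of 37.9% and 31% stand beside 30.8% and 30.2% of all genes. The M176 effect differed between sources for Cblb (-0.79) and Trat1 (0.84), and the M354 effect for Trat1 (-0.97).

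Of 27 tested MAP kinase cascade genes (47 listed), 5 were called in M176 against WT Tregs, all lower, namely the Ras activators Sos1 at -0.53 (adjusted p = 0.0123) and Sos2 at -0.46, the kinases Braf at -0.46 and Araf at -0.39, and Map2k5 at -0.46. The share called was 18.5%, below the 24.7% of all genes. M354 called 1, the kinase Map3k8, at -0.60 (adjusted p = 0.0286). Between the mutants 5 were called, all higher in M354, and between WT sources 3 were higher and 4 lower in Tregs, with the p38 genes Mapk11 at 1.18 and Mapk12 at 0.91 and the kinase Map2k1 at -0.92. These were 18.5% and 25.9% of the list, below the 30.8% and 30.2% of all genes. Of 22 tested JAK-STAT genes (32 listed), M176 against WT Tregs called 2 higher, Socs3 at 0.55 and Socs6 at 0.49, and 6 lower, with Pias3 at -0.57 and Il2rb at -0.48, together 36.4% beside 24.7% of all genes. M354 called 1 lower, Il6ra at -0.62 (adjusted p = 0.0233). Between the mutants 1 was higher and 4 lower in M354, and between WT sources 5 were called in each direction, with the cytokine inhibitor Socs2 at -1.36 (adjusted p = 1.41e-06). The shares were 22.7% and 45.5%, beside 30.8% and 30.2% of all genes.

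A list of other phosphatases and related genes outside the naming rule, not all of the same superfamily, gave 26 tested genes (42 listed). In M176 against WT Tregs 2 were higher, the mitochondrial Ptpmt1 at 0.79 and Acp1 at 0.61, and 7 lower, with the cofilin phosphatase Ssh3 at -0.65 and Cdc14b at -0.64, a share of 34.6% beside 24.7% of all genes. In M354 against WT Tregs limma called 0 (5 at an unadjusted p under 0.05). Between the mutants 6 were higher and 3 lower in M354, a share of 34.6% beside 30.8%. WT Tregs were lower than WT-transduced cells for 11 and higher for 1, with the cell cycle phosphatases Cdc25b at -1.54 (adjusted p = 1.27e-07) and Cdkn3 at -1.50 among the lower, a share of 46.2% beside 30.2% of all genes (19.4% lower). With M354 in transduced cells Cdkn3 rose by 0.84 and Cdc25c by 0.63, 7.69% of the list beside 1.33% of all genes. In the 3 signalling lists limma called 0 genes in any comparison of transduced cells. At an unadjusted p under 0.05 M354 against WT had 4 of the receptor list, 2 of the MAP kinase list and 6 of the JAK-STAT list, M176 against WT had 0, 1 and 1, and M354 against M176 had 1, 1 and 2. All genes were not counted at that threshold, so these counts, and the 5 in Tregs above, are a description.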

How the data were processed

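RNA of sorted T cells was amplified with the Ambion WT Expression Kit and hybridised to Affymetrix ST1.0 arrays, 2 per group. The authors deposited 1 intensity per probe set and array, on a linear scale, made with RMA in Affymetrix Power Tools per the submitters' processing notes, and the medians of the arrays still differ. Probe sets were named from the array's GEO annotation, 17703 of 20716 with 1 gene. Genes entered with their brightest probe set if above the array median (101.5 to 117.4) on at least 2 of 12 arrays. limma 3.58.1 (R 4.3.3) was fitted to log2 intensities of all 12 arrays with a mean per group (6 residual degrees of freedom, 10.9 from the prior), with Benjamini-Hochberg adjustment per comparison and calls at 0.05. Untransformed values are given as mean ± SD. Only 2 arrays per group limit the precision. The members and lists were chosen with earlier results of these data known. Named are members called in any comparison, others known in T cells, the 5 brightest, the 5 with the largest uncalled change, and called genes of the lists. The fit was tested on simulated data.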

Additional observations from a re-analysis of the deposited data

Results flagged for a closer look

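The effect of M354 on Ptpn13 differed between Tregs and transduced cells by 1.10 on the log2 scale in the test of the difference itself (adjusted p = 0.00366). Both M354 Treg arrays were above both WT Treg arrays, at 516 and 498 against 285 and 286, and both M354 transduced arrays were below the WT ones, at 156 and 186 against 208 and 202.

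The effect of M176 on Ptprj differed between the sources by -1.20 in the same test (adjusted p = 0.00287). The M176 Treg arrays were at 240.4 and 253 against 766 and 702 in WT, and the M176 transduced arrays at 647 and 656 against 922 and 774. Foxp3 itself was at 3442 and 3321 on the M176 Treg arrays and its part in this difference was not tested.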

How the results depend on the processing

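Of 670 values of called members under an alternative, 556 kept their call, 114 lost it and 0 changed direction. In a comparison of 2 groups, the filters, the replicate block, fits of a single source and arrays outside the comparison cannot move the estimate. The direction was thus fixed in advance for many of these values, and its constancy there is no support. The second probe set of Ptpn2 went the other way in M176 against WT Tregs (log2 -0.51 beside 0.61). The 14 calls kept throughout were Ptpn13 (M354 against WT and M176 Tregs and the difference between sources), Ptprj (M176 against WT and M354 Tregs and the difference between sources), Ptprs (M176 against WT and M354 Tregs), Dusp2 (M354 against M176 Tregs) and Dusp1, Ptpn5, Ptpn6, Ptpn9 and Ptpn12 (WT Tregs against WT-transduced cells). Ptpn5 is counted as kept although it was not tested with the stricter filter. Counts of called members moved most as follows. M354 against WT Tregs gave 1 with the mean of probe sets and 1 to 3 with single arrays left out. M176 against WT Tregs gave 8 with quantile normalization and 2 to 7 with single arrays left out. M354 against M176 Tregs gave 7 to 12. M354 against WT in transduced cells gave 1 without the filter, 1 with the mean of probe sets, 0 with only the transduced arrays and 0 to 1 with single arrays left out. WT Tregs against WT-transduced cells gave 7 with the stricter filter, which tested fewer genes, and 7 to 14 with single arrays left out. The difference for M354 gave 2 with quantile and 2 with cyclic loess normalization, and that for M176 gave 2 with cyclic loess and 1 to 2 with single arrays left out. Except for genes that were no longer tested, with the stricter filter or with an array left out, the cause was not tested.

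Whether replicate numbers pair the samples is not given in the labels. Deviations of same-numbered arrays correlated between -0.551 and 0.250 over 15 pairs, with 3 over 0.1. With 2 arrays per group these values cannot settle it. The lowest value means that arrays of unlike number deviated together, which a block on the number does not take up. Small nucleolar RNAs averaged log2 9.18 on WT, 9.64 on M354 and 9.46 on M176 transduced arrays (replicates 2, 1 and 2). Their partner arrays had 8.61, 8.75 and 8.86. The part of this in the correlations was not tested. With the replicate block the counts were 1, 3 and 11 in Tregs (M354 against WT, M176 against WT, M354 against M176), 0, 0 and 0 in transduced cells, 12 between the WT sources and 1 and 1 for the differences. Quantile normalization moved the median change of all genes between WT Tregs and WT-transduced cells from -0.0761 to 0.0354. With 2 arrays per group, calls close to the threshold turned on single arrays, most often WT Treg replicate 1, without which 13 calls ended. Members near the array median, such as Dusp3 and Ptprf, have little signal over background.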
